A study of Mus musculus with 23 samples.

Results

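Mammary epithelium of retired breeders, female mice whose use for breeding had ended, was set against that of pregnant mice in each of 3 purified cell types, labelled as mature luminal cells, stem cells and luminal progenitors. The arrays were chosen by their labelled reproductive stage, which gave 12 of the 23 arrays of the series. The 3 retired breeder arrays were 1 per cell type. The 9 pregnancy arrays were stem cells at day 10 (2 arrays) and day 16 (1 array), luminal progenitors at day 10 and day 16 (1 array each), and mature luminal cells at day 10 (2 arrays), day 16 and day 19 (1 array each). Virgins of 9 weeks, with 2 arrays per cell type, gave the level before pregnancy, and the 5 arrays of 3-week virgins entered the estimate of spread only. All mice were C57BL/6 females, none is labelled with a transgene or a drug, and all RNA was polyadenylated messenger RNA. The number of litters, the age of the retired breeders, the time since their last litter and the sorting markers are not given in the sources used here, so the retired breeders and the virgins may differ in age as well as in parity, and these cannot be told apart. The labels do not say that arrays came from separate animals, so the p-values reflect the scatter of these arrays alone, and that scatter may be technical.

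In pregnancy the mammary epithelium proliferates and its luminal cells turn into secretory alveolar cells, driven by progesterone, by prolactin acting through JAK2 and STAT5, and by the factor Elf5. A subset of luminal cells carries the oestrogen and progesterone receptors and relays those hormones to its neighbours through paracrine signals. After weaning most secretory cells die and the gland returns to a duct-like form in the process called involution. The comparison asks which pregnancy levels had returned in the retired breeders and which had stayed.

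All values are the deposited log2 expression values, so a difference of 1 is a 2-fold change, and each gene is read from 1 probe set, that of highest mean on the 23 arrays. Basal genes separated the retired breeder stem cells from the other preparations. Krt5, a basal keratin, had 12.24 in retired stem cells, 9.05 in retired luminal progenitors and 8.94 in retired mature luminal cells. Trp63, the basal transcription factor p63, had 12.09, 9.53 and 9.07 in the same order. Luminal genes did not separate them, since Krt8, a luminal keratin, had 13.35, 13.72 and 13.66, and Esr1, the oestrogen receptor, had 10.85, 10.57 and 11.57. The cell type names are therefore those of the labels. The retired arrays also differed in the signal of the 3′ over the 5′ control probe sets, which grows as RNA is shortened: for Gapdh this log2 difference was 3.77 in retired stem cells against 1.28 to 1.43 in pregnancy stem cells, 2.72 against 2.22 to 2.34 in luminal progenitors, and 1.97 against 0.98 to 1.37 in mature luminal cells. For Actb it was 3.1 against 1.01 to 2.32, 2.16 against 2.37 to 2.57, and 1.95 against 1.09 to 1.89. Its part in the results was not tested.

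Averaged over the 3 cell types, 224 of 15378 genes (1.46%) differed between retired breeders and pregnancy at a Benjamini-Hochberg adjusted p under 0.05 in limma, and most of them were higher in retired breeders. There were 190 higher genes (1.24%) and 34 lower genes (0.221%), and the median difference of all genes was 0.11. Of these, 189 of the 190 and 33 of the 34 had the same sign in each cell type, as did 42.4% of all genes. The retired array lay above every pregnancy array of its own cell type in all 3 types for 178 of the 190, against 9.33% of all genes, and below for 18 of the 34, against 4.32% of all genes. A fit with a term that separates arrays titled replicate 1 from the others called 757 higher (4.92%) and 189 lower (1.23%), all 224 genes among them. The retired arrays carry no replicate number and stand with the others in that term. Without the arrays titled replicate 1, and with the 12 retired and pregnancy arrays alone, the fit was additive. It had effects of stage and of cell type in place of 1 mean per group. In these settings 122 and 105 of the 224 passed, the first with 272 calls in all. The arrays and the model changed together there, so their parts cannot be told apart. Leaving out a retired array takes its whole cell type out of the averaged difference, here and below. Leaving out the retired mature luminal array gave 17 calls, all higher and all among the 224, and leaving out the retired stem array gave 132, of which 126 were among them. Leaving out the day 10 luminal progenitor array gave 120, all among them.

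The largest differences were genes that were low in every pregnancy array and high in every retired array. Ido1, which encodes the tryptophan-degrading enzyme indoleamine 2,3-dioxygenase, had 10.69 in stem cells, 11.25 in luminal progenitors and 13.05 in mature luminal cells of retired breeders, against a lowest, median and highest value of 1.75, 2.94 and 4.04 in the 9 pregnancy arrays. The 9-week virgins had 9.43, 11.77 and 12.7 by the same 3 measures. The retired and pregnancy arrays did not overlap, while the retired and virgin arrays did. The difference from pregnancy was 8.83 ± 0.60 (SE, limma adjusted p = 4.03e-05).

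Dmbt1, a secreted scavenger receptor of mucosal surfaces, showed the same layout, with 10.52, 10.67 and 11.53 in retired stem, luminal progenitor and mature luminal cells, against 1.04, 2.56 and 4.84 as lowest, median and highest in pregnancy (8.27 ± 0.78, SE, limma adjusted p = 0.000318). Fgb, the beta chain of fibrinogen, had 10.09, 11.15 and 12.27 in the retired arrays, against 2.82, 4.18 and 6.43 in pregnancy (6.93 ± 0.48, SE, limma adjusted p = 4.03e-05). Its partner chain Fgg, added here after its value was seen, was also higher, by 3.69 ± 0.33 (limma adjusted p = 0.000233, and 0.0521 without the retired mature luminal array). Ffar4, a receptor for long-chain fatty acids, had 9.16, 9.53 and 10.91 in the retired arrays, against 1.38, 3.99 and 5.89 in pregnancy (6.24 ± 0.49, SE, limma adjusted p = 8.08e-05). For Dmbt1, Fgb and Ffar4 no retired array lay inside the pregnancy range.

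Others of this kind were Nrxn3, a synaptic adhesion protein, higher by 7.17 ± 0.53, and Ctse, the protease cathepsin E, higher by 6.54 ± 0.61, although other probe sets of both genes gave smaller or opposite differences (-0.12 for Nrxn3 and -0.87 for Ctse). Piezo2, a mechanically gated channel, was higher by 3.57 ± 0.24. Ido1, Dmbt1, Fgb, Ffar4, Nrxn3, Ctse and Piezo2 passed also without the retired mature luminal array. Aoc1 (diamine oxidase), Col8a1 (a collagen), Ccbe1 (a lymphangiogenic factor), Cxcl15 (a chemokine), Fam25c and Proc (protein C) were higher by 5.65 to 6.50. Of these 6, Proc passed without the retired mature luminal array (limma adjusted p = 0.0386) and the other 5 did not (0.0521 to 0.394). Aoc1 and Col8a1 did not pass without the retired stem array either (0.0725 and 0.0879), nor Col8a1 without the day 10 luminal progenitor array (0.0719). Other probe sets gave 3.16 and 2.64 for Col8a1, 5.02 and 1.15 for Ccbe1, 6.78 for Cxcl15 and 1.13 for Piezo2. Piezo2 did not pass in the additive fit without the arrays titled replicate 1 (0.0947), where its difference was 3.03.

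**Figure D1:**
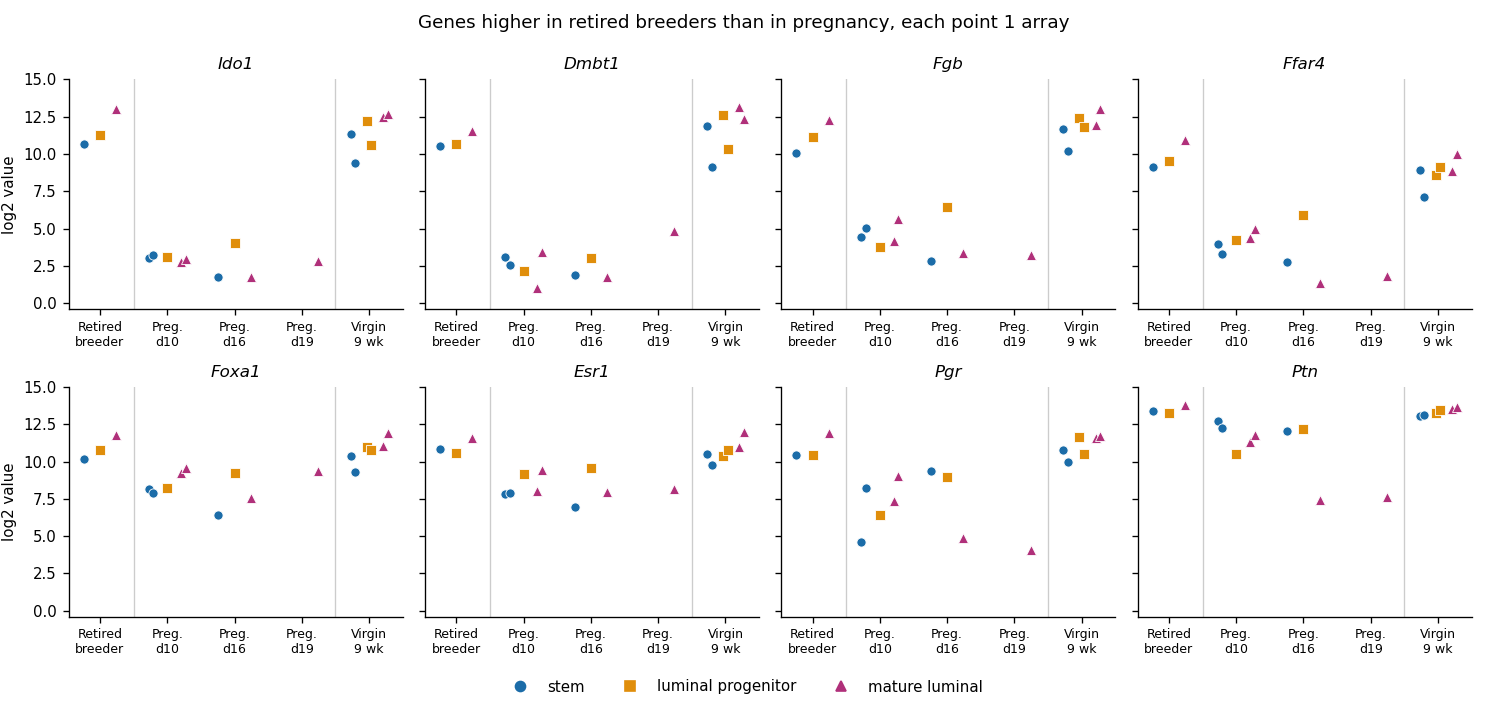
Log2 expression (y axis) of 8 genes that were higher in retired breeders than in pregnancy, one panel per gene, with 1 symbol per array, the stage on the x axis and the symbol shape giving the cell type. The retired arrays of Ido1 lie between 10.69 and 13.05 and the pregnancy arrays between 1.75 and 4.04.

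Genes of the hormone-sensing programme were higher in retired breeders. Of 12 list members with a value (oestrogen and progesterone receptors, their partners and mediators), 6 rose and 0 fell, and the median difference was 2.41, beside 1.24% higher calls and a median of 0.11 over all genes. Foxa1, the pioneer factor that opens oestrogen receptor sites, had 10.15, 10.79 and 11.80 in retired stem, luminal progenitor and mature luminal cells, against 6.42, 8.22 and 9.55 as lowest, median and highest in pregnancy (2.68 ± 0.33, SE, limma adjusted p = 0.00206). Esr1 had 10.85, 10.57 and 11.57 in the retired arrays, against 6.93, 8.02 and 9.54 in pregnancy (2.65 ± 0.36, SE, limma adjusted p = 0.00369). Pgr, the progesterone receptor, had 10.47, 10.43 and 11.95 in the retired arrays, against 4.07, 7.37 and 9.35 in pregnancy (3.85 ± 0.64, SE, limma adjusted p = 0.0111). In all 3 genes every retired array lay above every pregnancy array.

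Cited1, a co-activator in hormone-receptor-positive cells, was higher by 4.56 ± 0.63, Prom1, a surface marker of those cells, by 4.45 ± 0.57, and Stc2, a secreted glycoprotein, by 2.82 ± 0.49. The paracrine mediators did not pass: Wnt4 differed by 2.18 (limma adjusted p = 0.346) and Tnfsf11, which encodes RANKL, by 1.76 (limma adjusted p = 0.485). Gata3, a luminal transcription factor, differed by 0.18. Without the retired mature luminal array 0 of the 12 passed, with a median of 2.22, and without the retired stem array 6 passed. With the mean of the probe sets of each gene in place of one, 4 of the 12 passed, with a median of 1.64. In that setting Esr1 differed by 1.65 (limma adjusted p = 0.233). The other probe sets of Pgr gave 1.46 and 2.17, against 3.85 for the one used. In the additive fit without the arrays titled replicate 1, Pgr and Cited1 did not pass (0.0963 and 0.0788), with differences of 3.14 and 4.02. In pregnancy against 9-week virgins, which shares the pregnancy arrays, 6 of the 12 were lower and the median was -2.25, beside 2.93% lower calls and a median of 0.08 over all genes.

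Among signalling genes, Ptn, which encodes the heparin-binding growth factor pleiotrophin, had 13.42, 13.27 and 13.78 in retired stem, luminal progenitor and mature luminal cells, against 7.40, 11.77 and 12.72 as lowest, median and highest in pregnancy (2.66 ± 0.19, SE, limma adjusted p = 4.03e-05). Its lowest pregnancy values were 7.40 and 7.65, in mature luminal cells at days 16 and 19. Wnt5a, a ligand of non-canonical Wnt signalling, had 11.11, 10.46 and 11.23 in the retired arrays, against 3.39, 6.91 and 9.45 in pregnancy (3.80 ± 0.42, SE, limma adjusted p = 0.000948), and was the 1 call among 23 members of the Wnt list, of which Rspo1 also fell with the replicate term. Jak2, the kinase of the prolactin receptor, was higher by 1.30 ± 0.21, and was the 1 call among 13 members of the prolactin and STAT5 list, of which 2 fell with the replicate term, Tnfrsf11a (RANK) and Cyp24a1. The other probe set of Jak2 gave 0.45, and with the mean of probe sets 0 of the 13 rose and 1 fell. Slc12a2, the basolateral sodium-potassium-chloride transporter, was higher by 1.43 ± 0.18. Krt6a, an epithelial keratin, was higher by 4.65 ± 0.66. The other probe sets of Wnt5a gave 3.18, 3.74 and 0.15, and those of Krt6a 3.81 and 3.56. Without the retired mature luminal array Wnt5a, Jak2 and Krt6a did not pass (limma adjusted p = 0.164, 0.178 and 0.123), and Jak2 did not pass without the retired stem array either (0.0629). In the additive fit without the arrays titled replicate 1, Ptn, Wnt5a and Jak2 did not pass (0.126, 0.0693 and 0.0638). Their differences there were 2.45, 3.68 and 1.43.

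Milk genes moved the other way. All 8 milk protein genes of the list had a negative difference, with a median of -2.95, and 2 of them, Wap and Lalba, fell, beside 0.221% lower calls over all genes. With the replicate term 7 of the 8 fell. Wap, the whey acidic protein, had 5.67, 5.34 and 4.49 in retired stem, luminal progenitor and mature luminal cells, against 5.17, 7.32 and 13.57 as lowest, median and highest in pregnancy. The virgins had 2.58, 3.36 and 6.21. The retired arrays lay inside the range of the virgin arrays of all cell types pooled and, in stem cells, overlapped with day 10 of pregnancy. Pregnancy mature luminal cells at days 16 and 19 had 13.14 and 13.57. The difference from pregnancy was -4.90 ± 0.57 (SE, limma adjusted p = 0.0015, and 0.0705 without the retired mature luminal array). In the additive fit without the arrays titled replicate 1 it was -4.42 (limma adjusted p = 0.142). Lalba, the lactose synthase subunit alpha-lactalbumin, had 3.02, 6.94 and 4.31 in the retired arrays, against 6.20, 8.33 and 11.82 in pregnancy (-4.27 ± 0.88, SE, limma adjusted p = 0.0368, and 0.405, 0.171 and 0.0979 without the retired mature luminal, the retired stem and the day 10 luminal progenitor array). The day 10 luminal progenitor array stood above day 16 for milk genes, with 12.74 against 6.94 for Wap.

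The mean levels of Csn1s1 and Csn2 in retired breeders lay between those of pregnancy and the virgins, but neither passed against either stage without the replicate term, and 0 of the 8 milk protein genes passed against the virgins with or without the replicate term. Csn1s1, alpha-S1 casein, had 9.78, 12.40 and 8.84 in retired stem, luminal progenitor and mature luminal cells, against 11.59, 13.59 and 14.23 as lowest, median and highest in pregnancy and 3.65, 6.81 and 10.33 in the virgins. The difference from pregnancy was -3.13 ± 0.82 (SE, limma adjusted p = 0.0945, and 0.0168 with the replicate term). Csn2, beta casein, had 10.98, 12.43 and 9.08 in the retired arrays, against 12.17, 13.69 and 13.95 in pregnancy and 2.07, 6.95 and 12.09 in the virgins (-2.68 ± 1.75, SE, limma adjusted p = 0.533, and 0.0764 with the replicate term). The other probe set of Csn2 differed from pregnancy by -4.10. The highest pregnancy values of both caseins lay near 14.28, the highest value of the series, and the effect of such a limit was not tested. Of the 3 retired arrays, the stem and mature luminal ones lay inside the range of the virgin arrays for both caseins. That range pools the virgin arrays of all cell types and is not matched by type. The retired luminal progenitor array was the highest of the 3 for both caseins, and the retired mature luminal array the lowest. For Csn1s1 and Csn2 the excess of retired breeders over virgins was 0.54 and 0.60 of the excess of pregnancy over virgins. These shares average 2 virgin arrays per cell type, which differed. The mean of the 8 milk protein genes in stem, luminal progenitor and mature luminal cells was 5.76, 6.41 and 5.52 in virgin replicate 1. It was 7.12, 9.66 and 8.35 in virgin replicate 2 and 8.68, 9.95 and 8.10 in retired breeders. The retired mean lay above both virgin means in stem cells and luminal progenitors, and between them in mature luminal cells.

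Prolactin acts on casein genes through STAT5 bound to the letters TTCNNNGAA. The 250 bases before the start site of 3 milk genes, of which Wap fell and Csn1s1 and Csn2 did not pass without the replicate term, and of Fgb, which rose, are shown 5′ to 3′ on the gene's strand with matches to these letters in capitals, from RefSeq on GRCm38.p6. They are Csn1s1 at chr5:87665958-87666207 on the plus strand, Csn2 at chr5:87699426-87699675, Wap at chr11:6638650-6638899 and Fgb at chr3:83049864-83050113, these last on the minus strand.
Csn1s1: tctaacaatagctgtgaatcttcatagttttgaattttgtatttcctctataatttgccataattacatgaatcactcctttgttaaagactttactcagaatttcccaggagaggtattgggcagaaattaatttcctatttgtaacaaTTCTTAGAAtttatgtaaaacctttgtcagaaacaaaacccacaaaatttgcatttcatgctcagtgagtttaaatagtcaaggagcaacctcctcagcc
Csn2: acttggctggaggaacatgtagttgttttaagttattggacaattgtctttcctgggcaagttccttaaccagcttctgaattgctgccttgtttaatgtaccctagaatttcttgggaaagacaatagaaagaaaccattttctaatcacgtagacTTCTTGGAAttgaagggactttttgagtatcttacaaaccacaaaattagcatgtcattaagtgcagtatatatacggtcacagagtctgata
Wap: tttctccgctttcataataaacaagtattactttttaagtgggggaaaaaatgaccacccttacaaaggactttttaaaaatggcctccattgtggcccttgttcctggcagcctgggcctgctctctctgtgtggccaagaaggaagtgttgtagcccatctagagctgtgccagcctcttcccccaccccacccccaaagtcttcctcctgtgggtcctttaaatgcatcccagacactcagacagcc
Fgb: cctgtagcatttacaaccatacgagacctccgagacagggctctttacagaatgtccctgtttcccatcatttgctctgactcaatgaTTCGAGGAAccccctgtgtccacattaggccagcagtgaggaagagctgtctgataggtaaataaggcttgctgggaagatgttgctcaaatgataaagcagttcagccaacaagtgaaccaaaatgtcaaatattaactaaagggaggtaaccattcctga
The Csn1s1, Csn2 and Fgb windows hold 1 match each, starting at -100, -93 and -162 from the start site, and the Wap window holds 0. On both strands of windows from 250 bases before to 50 after the start site, the letters were present in 9.7% of the 134 higher genes with a window and in 3.45% of the 29 lower genes with one, against 8.32% of 12290 genes tested. A match is a description of these letters and not a bound site.

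Genes that supply and carry milk fat fell in part. Fabp3, a fatty acid carrier, had 7.13, 6.09 and 5.28 in retired stem, luminal progenitor and mature luminal cells, against 6.16, 10.93 and 14.02 as lowest, median and highest in pregnancy (-5.32 ± 0.63, SE, limma adjusted p = 0.00162). Olah, the thioesterase that releases medium-chain fatty acids for milk, had 5.06, 4.86 and 4.86 in the retired arrays, against 4.85, 10.06 and 12.40 in pregnancy (-5.19 ± 0.90, SE, limma adjusted p = 0.0145). Both overlapped with pregnancy through stem cells at day 10. The other probe set of Fabp3 gave -2.57 and that of Olah -6.38. Olah was the 1 call among 18 fatty acid synthesis genes, whose median was -0.52 and of which 5 fell with the replicate term. Acaca, acetyl-CoA carboxylase, differed by -1.84 (limma adjusted p = 0.0638, and 0.00466 with the replicate term). Of 17 genes of lipid uptake and the milk fat globule, Fabp3 fell and Dgat2, a triglyceride synthase, rose by 2.13 ± 0.43 (limma adjusted p = 0.0312). The other probe set of Dgat2 gave 0.87, and with the mean of probe sets 0 of the 17 rose and 2 fell. Dgat2 did not pass without the retired mature luminal, the retired luminal progenitor or the day 10 luminal progenitor array (0.541, 0.0539 and 0.0737), nor Olah without the retired luminal progenitor array (0.055). Plin2, a lipid droplet coat protein, differed by -2.06 (limma adjusted p = 0.112, and 0.0206 with the replicate term). With that term 5 of the 17 fell and 1 rose.

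Outside milk synthesis, the largest drop was in Gjb6, the gap junction protein connexin 30, which had 2.55, 2.83 and 1.36 in retired stem, luminal progenitor and mature luminal cells, against 4.51, 7.66 and 11.13 as lowest, median and highest in pregnancy. No retired array reached the pregnancy range (-5.97 ± 1.0, SE, limma adjusted p = 0.0123). Timd2, a ferritin receptor, fell by 4.10, Drd4, a dopamine receptor, by 3.81, Col9a1, a collagen, by 3.74, Slc30a2, the zinc transporter that loads milk, by 2.44 and Bmp2, a bone morphogenetic protein, by 2.21. The other probe set of Timd2 gave -1.77 and that of Col9a1 -4.06. Fabp3, Olah, Gjb6, Timd2, Drd4, Col9a1, Slc30a2 and Bmp2 did not pass without the retired mature luminal array, with limma adjusted p-values from 0.0696 to 0.563. Timd2, Drd4, Slc30a2 and Bmp2 did not pass without the day 10 luminal progenitor array (0.0592, 0.0565, 0.151 and 0.13), and Slc30a2 and Bmp2 not without the retired stem array (0.0772 and 0.0749). Among 17 milk defence genes Wfdc2, a secreted protease inhibitor, rose by 3.84 ± 0.64 (limma adjusted p = 0.0116, and 0.178 without the retired mature luminal array) while the list's median was -0.68. With the replicate term 6 of them fell, among them Saa1, serum amyloid A, which differed by -3.36 (0.108 without that term and 0.00567 with it).

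**Figure D2:**
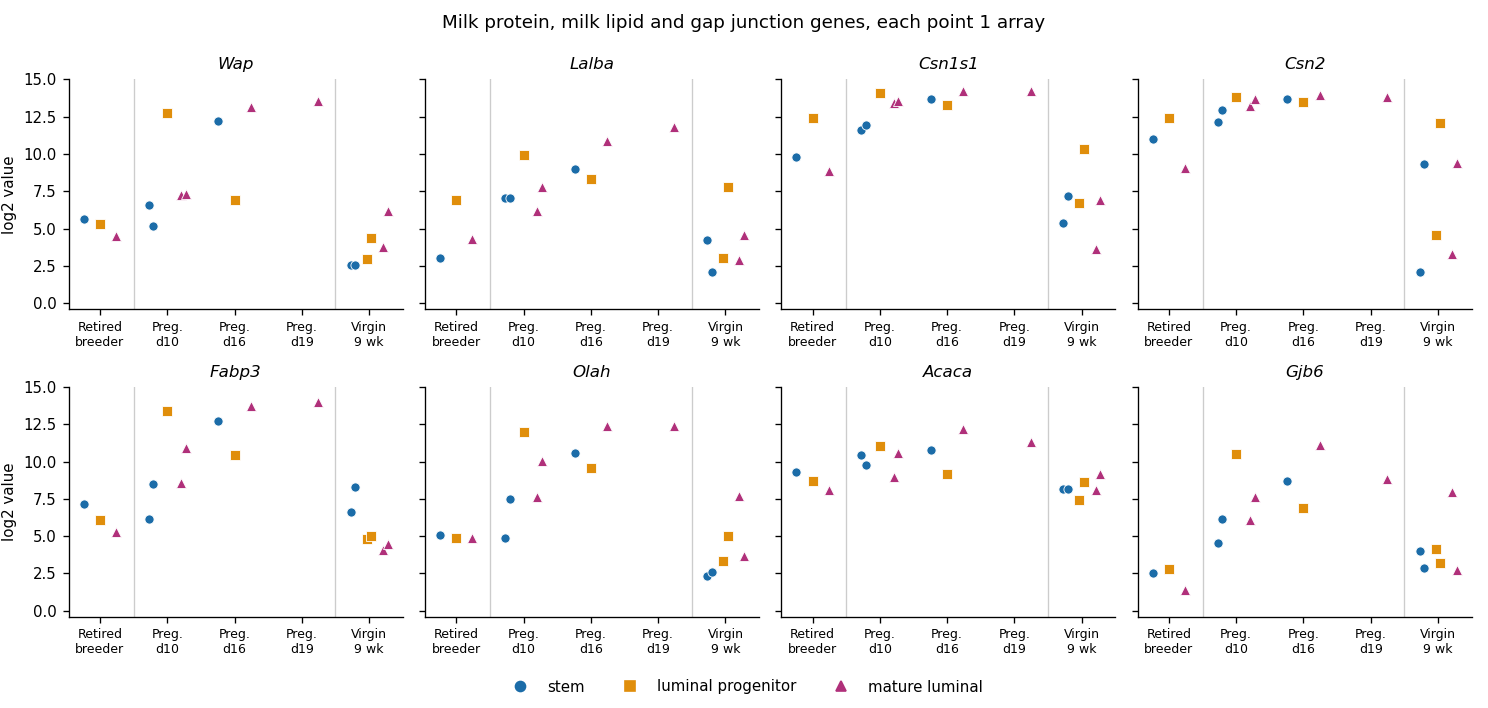
Log2 expression (y axis) of 8 genes of milk synthesis and secretory differentiation, one panel per gene, with 1 symbol per array, the stage on the x axis and the symbol shape giving the cell type. For Wap the retired arrays lie between 4.49 and 5.67 and the pregnancy arrays between 5.17 and 13.57.

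To ask which pregnancy levels had returned, genes that differed between pregnancy and 9-week virgins were followed into the retired breeders. Pregnancy differed from the virgins in 907 genes (5.90%), 457 higher (2.97%) and 450 lower (2.93%). Of the 450 genes that were lower in pregnancy, 162 were called back up in retired breeders. Of the 457 that were higher in pregnancy, 32 were called back down. In retired breeders against virgins 1 gene passed (0.00650%), with 1113 at an unadjusted p under 0.05, and 712 genes were undecided. The 3 comparisons share the pregnancy and virgin arrays, so the counts follow from one another in part. The retained share, the retired minus virgin difference over the pregnancy minus virgin difference, had a median of 0.07 for genes lower in pregnancy and 0.47 for genes higher in pregnancy. Returned genes numbered 17 without the retired mature luminal array, 123 without the retired stem array and 103 without the day 10 luminal progenitor array. The retained share was 0.5 or more in 32 of the 450 and in 211 of the 457. With quantile normalization these medians were 0.12 and 0.34. Without single virgin arrays they ranged from -0.02 to 0.21 and from 0.36 to 0.61.

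**Figure D3:**
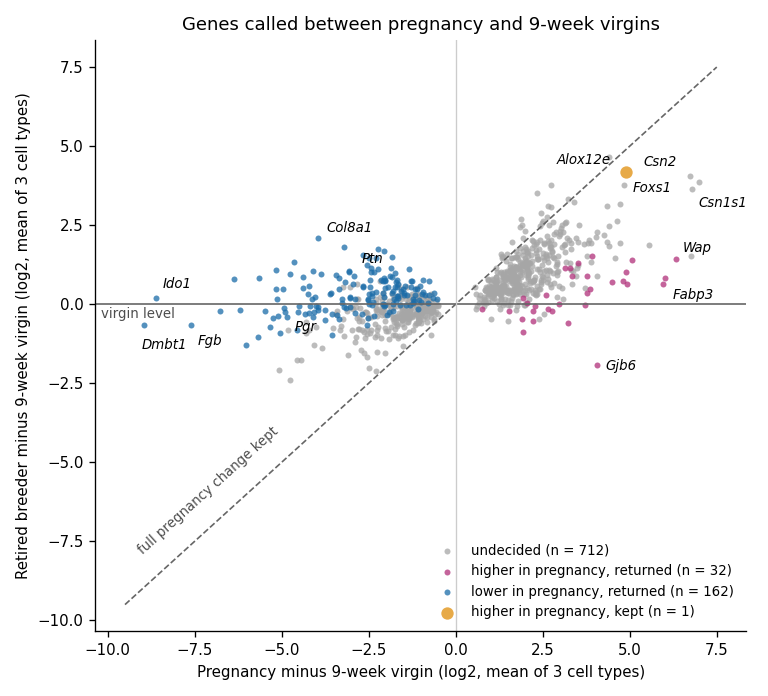
Retired minus 9-week virgin (y axis) against pregnancy minus 9-week virgin (x axis), in log2 units, for the 907 genes that differed between pregnancy and virgins, coloured by class. A point on the horizontal zero line has returned to the virgin level. The dashed diagonal marks a fully kept change. Of the coloured points 162 returned genes are on the left and 32 on the right, Alox12e is the kept gene, and both axes share the virgin arrays.

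The gene called as kept was Alox12e, an epidermal 12-lipoxygenase. It had 7.80, 7.11 and 7.91 in retired stem, luminal progenitor and mature luminal cells, against 6.78, 8.66 and 9.45 as lowest, median and highest in pregnancy. The virgins had 1.89, 3.2 and 4.9, below every retired and pregnancy array. Retired breeders exceeded virgins by 4.17 ± 0.45 (SE, limma adjusted p = 0.0152) and differed from pregnancy by -0.72 ± 0.43 (limma adjusted p = 0.494). The retained share was 0.85, and between 0.74 and 0.96 in the single cell types. Without the retired stem array the difference from virgins was 3.5 (limma adjusted p = 0.33). It did not pass either without the retired luminal progenitor array (0.0901) or without single virgin arrays, namely replicate 2 of stem cells (0.0554), replicate 1 of luminal progenitors (0.0728) and replicate 1 or replicate 2 of mature luminal cells (0.0752 and 0.0662).

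In all, 77 genes, of which 70 were higher in pregnancy, kept 0.5 or more of the pregnancy change in each cell type, without a test of that count. Foxs1, a forkhead transcription factor, had 7.21, 7.65 and 6.63 in retired stem, luminal progenitor and mature luminal cells, against 5.85 to 10.19 in pregnancy and 1.15 to 6.49 in virgins, a share of 0.78. Wfdc12, a secreted protease inhibitor, had 7.98, 8.74 and 10.26, against 8.29 to 12.52 in pregnancy and 4.60 to 7.27 in virgins, a share of 0.67. Elf5, the alveolar transcription factor, had a share of 0.59 and differed from pregnancy by -1.37 (limma adjusted p = 0.367). The other probe set of Elf5 differed from pregnancy by -2.61. Neither Foxs1, Wfdc12 nor Elf5 passed against the virgins.

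A set of 30 genes differed between retired breeders and pregnancy without a call in pregnancy against virgins, and 3 of them are described here after their values were seen. Ctsr, a cathepsin protease, had 6.68, 7.0 and 9.15 in retired stem, luminal progenitor and mature luminal cells, against 0.09, 2.08 and 4.0 as lowest, median and highest in pregnancy and 0.09, 0.98 and 3.71 in virgins. Ctsj, a related cathepsin, had 4.50, 6.04 and 7.66 in the retired arrays, against 0.16, 2.17 and 2.96 in pregnancy and 1.12, 1.69 and 2.33 in virgins. Every retired array lay above every pregnancy and virgin array for both genes. They were higher than pregnancy by 5.60 ± 0.86 and 4.37 ± 0.61 (limma adjusted p = 0.00623 and 0.00411). Against virgins the adjusted p was 0.0936 for both, and with the replicate term 0.0549 for Ctsr and 0.0382 for Ctsj. Close copies exist in the placental cathepsin family, and a probe set may read several of them. Spink1, a trypsin inhibitor, had 5.64, 7.68 and 8.21 in the retired arrays, against 0.00, 1.62 and 3.25 in pregnancy and 1.49, 3.52 and 5.61 in virgins. It was higher than pregnancy by 5.44 ± 0.98 (limma adjusted p = 0.0177). Against virgins it differed by 3.69 ± 1.02 and did not pass (0.592, and 0.458 with the replicate term), and its lowest retired array was level with the highest virgin array. Without the retired mature luminal array Ctsr, Ctsj and Spink1 did not pass (0.18, 0.123 and 0.306).

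**Figure D4:**
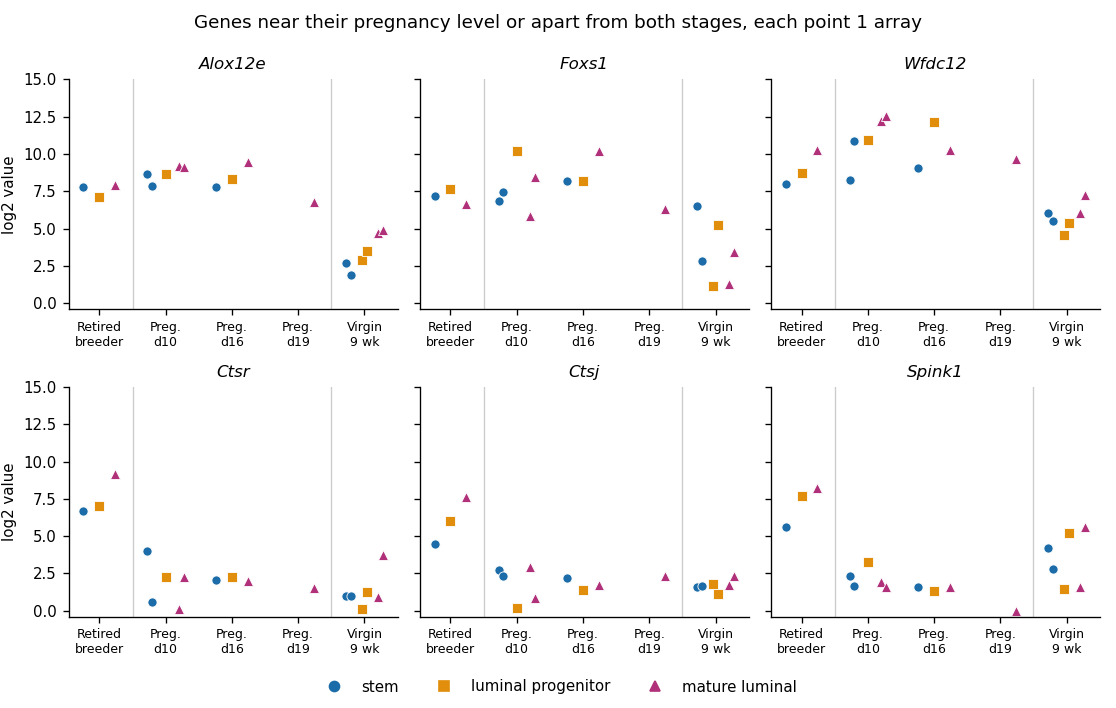
Log2 expression (y axis), one panel per gene, with 1 symbol per array, the stage on the x axis and the symbol shape giving the cell type. The means of Alox12e, Foxs1 and Wfdc12 in retired breeders lay between those of the virgins and pregnancy, nearer to pregnancy. Alox12e passed against the virgins, while Foxs1 and Wfdc12 did not without the replicate term. Ctsr, Ctsj and Spink1 were higher than in pregnancy and did not pass against the virgins without the replicate term. For Alox12e the virgin arrays lie between 1.89 and 4.9, below the retired arrays.

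Within single cell types each retired group is 1 array, whose spread is assumed to be that of the other groups. Mature luminal cells gave 139 higher genes (0.904%) and 17 lower (0.111%), and 505 (3.28%) and 119 (0.774%) with the replicate term. Ido1 was higher there by 10.56 ± 0.99 (limma adjusted p = 0.000805), Fgb by 8.44 ± 0.81, Ffar4 by 8.29 ± 0.82 and Ptn by 4.91 ± 0.31. Fabp3 fell by 7.21 ± 1.04, Wap by 6.84 ± 0.95, Drd4 by 6.02 ± 0.95 and Col9a1 by 5.90 ± 0.88. Without the day 16 mature luminal array 67 genes passed, and without replicate 1 of day 10 96. Stem cells gave 5 higher genes and 0 lower (0.0325%), namely Ido1, Nrxn3, Fgb, Ffar4 and Piezo2, and 0 when any 1 of its 3 pregnancy arrays was left out. With the replicate term 32 were higher (0.208%) and 3 lower (0.0195%). Luminal progenitors gave 0 calls in limma, with 492 genes at an unadjusted p under 0.05, and with the replicate term 7 higher (0.0455%) and 1 lower (0.00650%), the lower one being Fabp3. The difference between retired breeders and pregnancy was itself larger in mature luminal than in stem cells for 1 gene (0.00650%), Ptn, by 3.77 ± 0.45 (limma adjusted p = 0.044), a call that was lost without any 1 of the 3 pregnancy stem or the 4 pregnancy mature luminal arrays except that of day 16 in stem cells. Ptn differed by 1.14 ± 0.33 in stem cells and by 1.92 ± 0.34 in luminal progenitors.

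Markers of other cell types were measured beside these results, in 7 lists with 64 members. Averaged over the cell types none passed in limma, with or without the replicate term, and in mature luminal cells 1 adipocyte gene passed with that term. Of the 64, 50 had a positive difference, beside 56.4% of all genes. All 12 endothelial genes were positive, with a median of 1.11, and 10 of 11 fibroblast genes, with a median of 0.96. In mature luminal cells the medians were 1.89 for endothelial, 2.61 for fibroblast, 3.01 for leukocyte and 2.78 for B and plasma cell genes, beside 0.24 for all genes. In luminal progenitors the same 4 medians were -0.47, -0.78, -2.04 and -2.34, beside -0.07 for all genes, and in stem cells 1.66, 1.53, 0.96 and 0.13, beside 0.17. The mean over the list lay between 6.92 and 8.30 in retired arrays and between 4.75 and 7.80 in pregnancy for endothelial genes, and between 6.73 and 9.23 in retired arrays and between 3.59 and 10.15 in pregnancy for fibroblast genes. The part of other cells in the mature luminal results was not tested, and in such preparations fewer cells of a type and less RNA per cell cannot be told apart.

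Other programmes gave few or no calls. None of 30 cell cycle genes passed, with a median of -0.36, and Mki67, a proliferation marker, differed by -1.36 (limma adjusted p = 0.308). In pregnancy against virgins 6 of the 30 were higher, beside 2.97% of all genes. With the replicate term 17 of the 30 were higher there, beside 1158 of 15378 genes. All 19 respiratory chain genes had a negative difference with a median of -0.40, and 0 passed. None of 21 interferon response genes passed, with a median of 0.41, and 1 rose with the replicate term, Usp18 (2.45, limma adjusted p = 0.123 without the term and 0.0114 with it). Of 21 genes of DNA methylation and Polycomb 0 passed, among them Dnmt1, the maintenance methyltransferase, which differed by 0.48 (limma adjusted p = 0.546), and Ezh2, the Polycomb methyltransferase, which differed by 0.48 (0.619). With the replicate term 1 of the 21 fell, Tet1, a methylcytosine dioxygenase (-2.22, limma adjusted p = 0.343 without the term and 0.0374 with it). Of 20 basal and 14 luminal keratin and junction genes 0 passed, with medians of -0.16 and 0.06, and 1 of the 14 rose with the replicate term, Krt7 (1.09, limma adjusted p = 0.515 without the term and 0.0209 with it). A p that misses the threshold does not show that these genes were at equal levels.

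**Figure D5:**
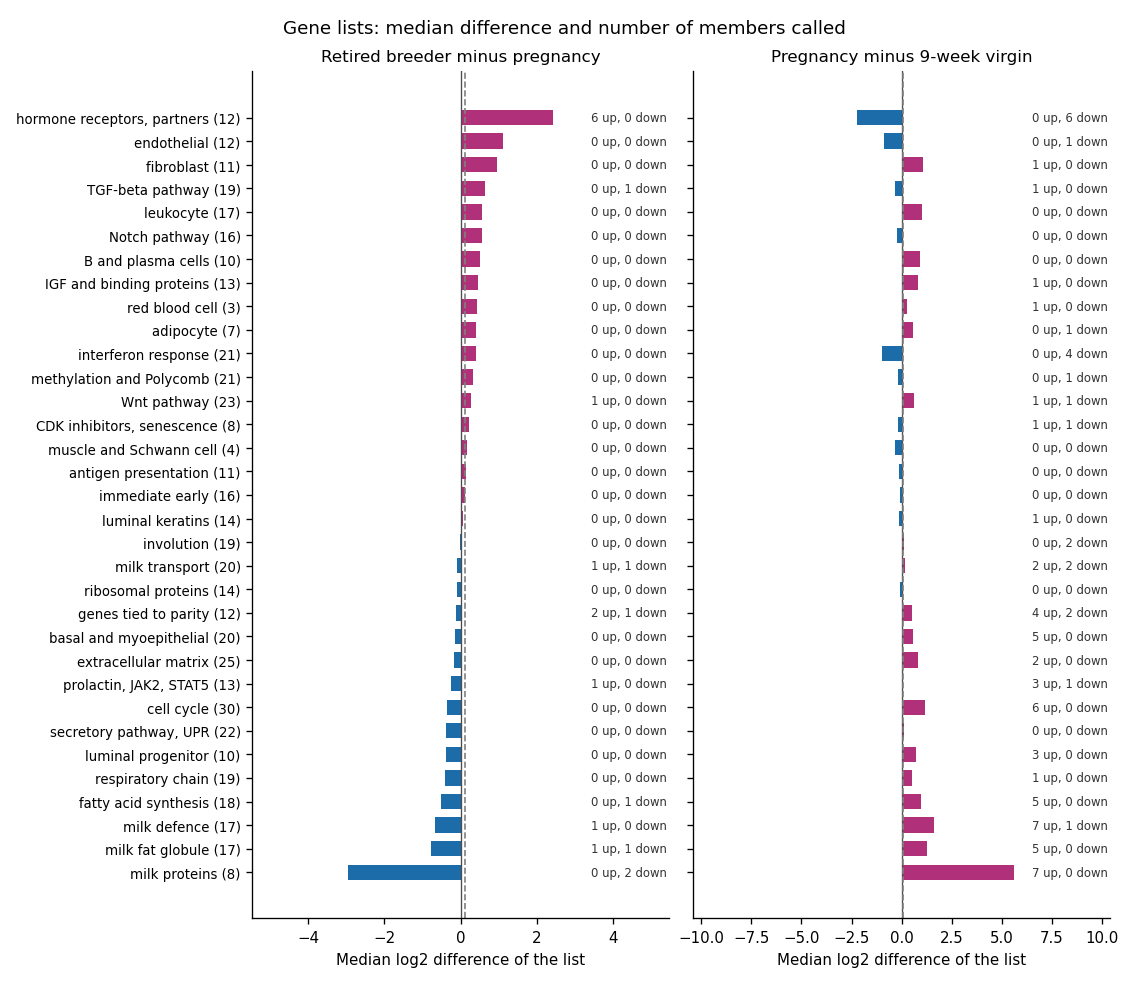
Median log2 difference of the members of each of 33 gene lists, for retired breeders minus pregnancy (left) and pregnancy minus 9-week virgins (right), with the number of members called at the right edge and the median of all genes as a dashed line. The hormone list has a median of 2.41 on the left and -2.25 on the right, and the milk protein list -2.95 and 5.62.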

How the data were processed

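Gene expression was measured on Affymetrix arrays hybridised with biotinylated cRNA from polyadenylated RNA, per the labels' protocols. The authors deposited log2 values for 45101 probe sets on 23 arrays. That this is a log2 scale follows from the range of the values, which run from 0 to 14.28 with array medians from 4.51 to 5.47, and the sources used here do not name the summary and normalization software. Values near 0 are background, so differences from them are no exact folds, and array number limits the precision.

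Of the probe sets, 34945 had 1 gene symbol, 932 several and 9160 none, by the platform annotation. The probe set with the highest mean stood for each gene, and 15378 genes above the 40th percentile on at least 2 arrays were kept. Limma 3.58.1 in R 4.3.3 fitted 1 mean per group (16 groups, 7 of them with 2 arrays) with a trended prior, 7 residual degrees of freedom, pregnancy days weighted equally, and Benjamini-Hochberg adjustment over all genes at 0.05. The fit was also run on simulated data with independent noise on each array. That noise lacked the correlation of same-titled replicates given next, so the run does not test how the calls depend on it. Numbers of same-titled replicates were checked for pairing: all 21 pairs of the 7 groups of 2 correlated above 0.1 (0.303 to 0.682), so the replicate term is given beside results whose calls it changes. No 2 arrays were identical.

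Named genes were the 12 largest per direction among calls with 1 sign in every cell type, up to 6 per direction within a type, the 4 smallest p per list, a fixed set of milk, keratin, hormone and methylation genes, and up to 8 per return class. Trp63 was named as a cell type marker. Stc2, Wnt4, Tnfsf11 and Gata3 are further members of the hormone list, named outside these rules. Others are said to be chosen later. Members and lists were chosen with earlier results of these data known. Alternatives were quantile normalization, a floor at the array median, no filter, the mean of probe sets, single pregnancy days, no day 19, no trend, fewer arrays, and leaving out each array. The fits without the arrays titled replicate 1 and with the 12 retired and pregnancy arrays alone were additive in stage and cell type. Prlr and Areg are not analysed here.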

Additional observations from a re-analysis of the deposited data

Results flagged for a closer look

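The difference between retired breeders and pregnancy was tested against itself across cell types, and for Ptn it was 3.77 log2 units larger in mature luminal than in stem cells (± 0.45, SE, limma adjusted p = 0.044, and 0.0115 with the replicate term). Ptn was 13.78 in retired and 7.40 to 11.77 in pregnancy mature luminal cells, and 13.42 in retired and 12.06 to 12.72 in pregnancy stem cells. The other 2 probe sets of Ptn gave differences over all cell types of 4.39 and 0.44, against 2.66 for the one used. Each retired value is 1 array.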

How the results depend on the processing

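No gene named here that passed reversed its direction in a setting run. Of all 224 calls between retired breeders and pregnancy, 223 kept their direction with the floor and 223 with the mean of probe sets, and 224 in the other settings run. The number of calls moved. With the replicate block, retired breeders against pregnancy gave 946 calls over all cell types, 35 in stem cells, 8 in luminal progenitors and 624 in mature luminal cells, pregnancy against virgins gave 2221, retired breeders against virgins gave 3, and 717 genes returned. Over all cell types day 10 alone gave 102, and the block without the retired stem array, chosen after seeing the data, gave 538. In stem cells quantile normalization gave 8 and no filter 3, while the mean of probe sets, day 10 alone, day 16 alone and no trend gave 0. In luminal progenitors quantile normalization gave 4 and the floor 1, and in mature luminal cells day 10 alone gave 19. The Ptn contrast between mature luminal and stem cells gave 0 calls with quantile normalization, no filter, the mean of probe sets, no day 19, day 10 alone and no trend. Pregnancy against virgins gave 517 in the additive fit without arrays titled replicate 1, 330 for day 10 and 505 for day 16. Retired breeders against virgins gave 2 in that additive fit, 3 with no filter, 6 with the floor and 0 for the block without the retired stem array. Returned genes numbered 90 for day 10, kept genes 2 with the floor, and genes with retired arrays outside the pregnancy range, 2099 in all, numbered 3890 without arrays titled replicate 1, 3621 for day 10 and 6327 for day 16. Leaving out 1 array in turn gave 17 to 284 calls over all cell types (17 without the retired mature luminal array), 0 in stem cells, 0 to 4 in luminal progenitors, 67 to 137 in mature luminal cells, 0 to 1 for the Ptn contrast, 410 to 1094 for pregnancy against virgins (410 and 512 without virgin replicate 1 of luminal progenitors and of mature luminal cells, 453 and 523 without the day 10 luminal progenitor and the day 16 mature luminal array), 0 to 1 for retired breeders against virgins, 17 to 236 returned, 0 to 2 kept and 2156 to 4199 outside the range. The count outside the range can only stay or rise when arrays are left out. Each retired array then has fewer pregnancy arrays to lie beyond, or its cell type is skipped. The cause of the other moves was not tested, beyond the fewer arrays of some settings and the additive fit of some. Quantile normalization moved the share of higher calls to 76.9%, against 84.8%, and the all-gene median to -0.05.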
